A study of Mus musculus with 18 samples.

Results

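The Cdx genes are the mouse homologues of the Drosophila gene caudal. Cdx1, Cdx2 and Cdx4 were taken by gene symbol from the feature lists of the libraries, 3 genes of the 31053 mouse genes counted, and their unique molecular identifier (UMI) counts were read in every cell. Single-cell transcriptomes had been measured with the 10x Genomics 3' v3 chemistry in 18 libraries, each labelled as 1 embryo at E8.5 on the 129S4/SvJae background. There were 7 libraries labelled as wild-type (WT) embryos, 3 as knockouts of Dnmt1 (Dnmt1 KO), 4 of Dnmt3a (Dnmt3a KO) and 4 of Dnmt3b (Dnmt3b KO), of which 2 shared most of their cell barcodes and count as 1 embryo. The mutants are given by the study as homozygous (-/-) embryos from natural matings of heterozygous parents, and were genotyped by PCR on the ectoplacental cone. The labels do not say from which of the crosses a WT embryo came. Of 128881 barcodes with at least 1500 UMIs, 109962 were kept as single cells, 7864 of which stand in both of these 2 libraries, with 36484017 to 234447155 counts per library. All comparisons with WT below share the same WT embryos.

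Cdx proteins are homeodomain transcription factors that act at the posterior end of the embryo. They are switched on by Wnt, Fgf and retinoic acid signals, they bind near Hox genes and help to set trunk and posterior Hox expression, and without them the body axis fails to extend. Cdx2 has further roles in the trophectoderm, the founder of the placenta, and in the identity of the intestine. Cdx1 is a direct retinoic acid and Wnt target. Cdx4 is X-linked and is known for its expression in the tail bud and for a part in embryonic blood formation. Dnmt1 copies DNA methylation after replication, and Dnmt3a and Dnmt3b add it to unmethylated CpG dinucleotides.

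On mouse build GRCm38 (mm10), Cdx2 (ENSMUSG00000029646) lies on chromosome 5 from 147300805 to 147307270 on the minus strand and Cdx4 (ENSMUSG00000031326) on chromosome X from 103321398 to 103330592 on the plus strand. By the GENCODE M21 annotation each is a protein-coding gene of 3 exons that overlaps no other annotated gene, as is Cdx1. RefSeq promoter sequence on GRCm38.p6, from 250 bases before to 50 bases after the gene start, was at hand for 2 of the genes. These windows follow the RefSeq gene start, which for Cdx2 is not the GENCODE start given above. The promoters are shown because CpG dinucleotides, printed in capitals, are what the deleted enzymes methylate. The Cdx2 window is chr5:147307200-147307499 on the minus strand and the Cdx4 window is chrX:103321148-103321447 on the plus strand, both read 5′ to 3′.
Cdx2: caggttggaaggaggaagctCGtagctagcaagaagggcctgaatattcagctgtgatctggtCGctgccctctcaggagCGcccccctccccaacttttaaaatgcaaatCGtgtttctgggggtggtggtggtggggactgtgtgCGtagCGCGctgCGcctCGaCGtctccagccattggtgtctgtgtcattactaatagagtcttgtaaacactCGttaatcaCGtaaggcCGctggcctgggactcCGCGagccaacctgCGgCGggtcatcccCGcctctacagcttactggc
Cdx4: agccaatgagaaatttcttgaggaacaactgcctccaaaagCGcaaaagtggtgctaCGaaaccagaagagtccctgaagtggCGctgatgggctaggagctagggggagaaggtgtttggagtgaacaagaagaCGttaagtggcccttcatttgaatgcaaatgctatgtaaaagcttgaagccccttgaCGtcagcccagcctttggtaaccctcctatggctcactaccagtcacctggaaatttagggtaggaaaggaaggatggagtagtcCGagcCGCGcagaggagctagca
The Cdx2 window held 18 CpG dinucleotides, at percentile 71.1 of 32851 promoters of the same length (mid-rank, ties shared evenly). Its GC content was 57.3%, and it held 0.731 of the CpG number its base composition would give. The Cdx4 window held 8, close to the median of 7 over all promoters, with a GC content of 50.3% and a ratio of 0.433. Neither window held CTTTGAT, the core bound by the Wnt effectors TCF and LEF (in 3.73% of all promoters on either strand), nor TTTATGG, a core of the caudal homeodomain (in 2.75%). Methylation itself was not measured in these libraries.

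The genotypes were first checked on the targeted genes. Dnmt1 stood between 83.1 and 115 CPM (UMIs of a gene per 1000000 UMIs) in the 7 WT embryos and between 14.9 and 15.7 CPM in the 3 Dnmt1 KO embryos, a log2 fold change of -2.69 (SE 0.12, edgeR adjusted p = 1.29e-10). Dnmt3a stood between 23.1 and 34.97 CPM in WT and between 7.40 and 11.8 CPM in Dnmt3a KO (log2 fold change -1.68, SE 0.25, edgeR adjusted p = 0.00261). Dnmt3b was not lower in Dnmt3b KO (54.2 to 68.3 CPM against 35.3 to 87.3 CPM in WT), so its 3' counts do not check that label. In the Dnmt3b KO group, the library labelled 12 held only 7.58 CPM of Dnmt3a, inside the range of Dnmt3a KO, and the library labelled 11 held 15.1 CPM, and the main results of the Dnmt3b KO group are therefore given by library. Of that group, the libraries with the numbers 1 and 2 shared 12249 cell barcodes, 86.5% of the barcodes of the former, and were averaged and counted as 1 embryo. WT 2 was the only male among the WT embryos, whereas every KO embryo except the library labelled Dnmt3b KO 12 was male, so sex and genotype are largely confounded. WT 1, Dnmt3a KO 1, Dnmt3a KO 13 and the library labelled Dnmt3b KO 11 had been counted on a joint human and mouse reference, in which no UMI fell on the human CDX genes.

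The first question was where in the WT embryo the family is expressed. All 3 genes had their highest mean in cells resembling neuromesodermal progenitors (NMP-like, the tail bud cells that supply both spinal cord and paraxial mesoderm). NMP-like cells were named from Nkx1-2, T, Fgf17 and other markers, and the Cdx genes themselves took no part in building the classes, nor did the Hox genes. Cells named from Tbx6, Dll1 and Hes7 (presomitic mesoderm-like), an unnamed cluster led by Osr1 and Lhx1, and an unnamed cluster of shallow cells led by Hes3 and Nkx1-2 followed. Red blood cell precursors (erythroid-like) were lowest for each gene.

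Cdx1 (ENSMUSG00000024619, GRCm38 chromosome 18 from 61018862 to 61036199, minus strand) reached 264 ± 108 CPM in NMP-like cells (mean ± SD, n = 7 embryos), with 99.8 CPM in WT 1, 176 CPM in WT 2 and 260 to 445 CPM in WT 3 to WT 7. WT 1 and WT 2 lay below the other 5 embryos. The Hes3-led cluster followed at 146 ± 92.4 CPM, presomitic mesoderm-like cells at 123 ± 37.0 CPM and the Osr1-led cluster at 64.7 ± 19.9 CPM (n = 7 each). Surface ectoderm-like (39.5 ± 16.7 CPM), hindbrain and spinal cord-like (37.2 ± 11.5 CPM) and notochord-like cells (33.2 ± 33.0 CPM, n = 4) came next and did not differ from one another beyond their spread. Somitic mesoderm-like cells held 24.6 ± 3.42 CPM (n = 6), gut-like cells 19.2 ± 8.63 CPM and erythroid-like cells 0.521 ± 0.280 CPM.

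Cdx2, the member with the broadest range, stood at 353 ± 72.3 CPM in NMP-like cells, from 257 CPM in WT 4 to 437 CPM in WT 7. A wide set of classes lay close together below it, and the spread between embryos was larger than most steps in this order. It held presomitic mesoderm-like cells (155 ± 21.6 CPM), the Hes3-led cluster (149 ± 92.7 CPM), notochord-like cells (135 ± 67.5 CPM, n = 4), the Osr1-led cluster (132 ± 28.6 CPM), gut-like cells (113 ± 42.3 CPM) and allantois-like cells (106 ± 46.6 CPM). Outside the embryo proper, yolk sac endoderm (ExE endoderm-like) held 26.5 ± 3.80 CPM of Cdx2, whereas Cdx1 and Cdx4 stood there at 0.556 ± 0.266 and 1.22 ± 0.892 CPM, near their erythroid-like levels. Cells named from the trophoblast markers Elf5 and Plac1 (ExE ectoderm-like) were numerous enough in 1 WT embryo only, where Cdx2 stood at 37.3 CPM and Cdx4 at 1.66 CPM. Erythroid-like cells held 0.759 ± 0.640 CPM.

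Cdx4 stood at its highest in tail bud cells too, with 475 ± 42.5 CPM in NMP-like cells, 275 ± 41.7 CPM in presomitic mesoderm-like cells, 234 ± 55.2 CPM in the Osr1-led cluster and 201 ± 118 CPM in the Hes3-led cluster. In NMP-like cells the 7 embryos ran from 414 to 530 CPM, with the male WT 2 inside this range at 469.6 CPM. Gut-like (80.6 ± 30.3 CPM) and allantois-like cells (80.3 ± 44.9 CPM) were alike in level, and surface ectoderm-like cells followed at 26.9 ± 7.97 CPM. ExE mesoderm and mesenchyme-like cells (1.81 ± 1.02 CPM) and erythroid-like cells (0.550 ± 0.382 CPM) lay at the foot of the order.

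**Figure D1:**
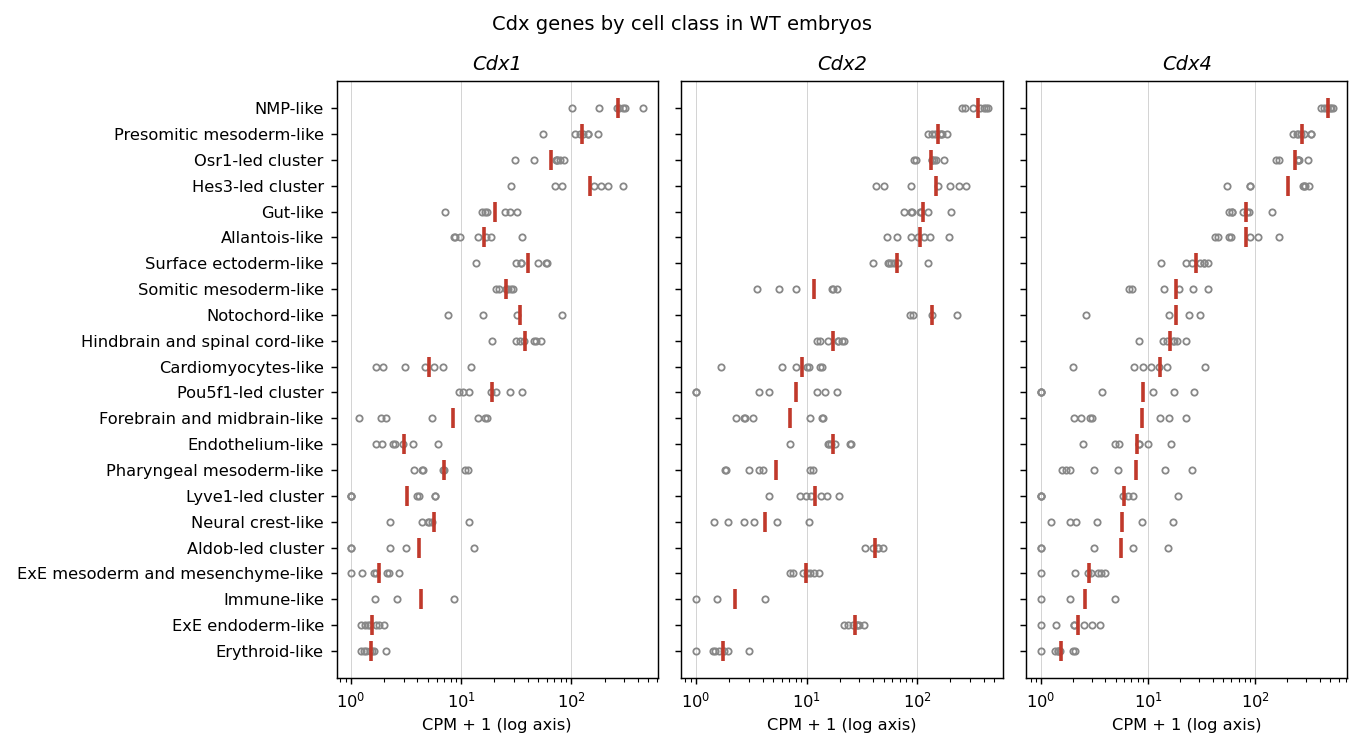
Cdx1, Cdx2 and Cdx4 in the cell classes of WT embryos, 1 panel per gene. Each point is 1 embryo, the horizontal axis gives CPM + 1 on a log axis, the red tick is the mean over embryos, and the NMP-like class is highest for each gene (264, 353 and 475 CPM).

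Neighbours in these orders were compared within embryos by an exact two-sided sign-flip permutation test, 63 comparisons in all, for which 7 embryos allow a smallest p of 0.0156. The orders came from the means of the same embryos, so the pairs were picked from the values tested and the p-values may be too small. By this exact test NMP-like cells were above the next class in 6 of 7 embryos for Cdx1 (p = 0.0312), in 7 of 7 for Cdx2 and in 7 of 7 for Cdx4 (p = 0.0156 each). For Cdx1, presomitic mesoderm-like cells were above the Osr1-led cluster in 7 of 7 embryos, and for Cdx2 ExE endoderm-like cells were above hindbrain and spinal cord-like cells in 7 of 7. The lowest p after Benjamini-Hochberg adjustment was 0.164, so with 7 embryos no neighbouring pair passed the adjusted threshold.

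Clusters of 1 class could differ widely in their Cdx levels, given here for 3 classes as a description without a test. Among gut-like cells, the cluster led by Nepn and Gpx2 held 31.1 ± 13.3 CPM of Cdx1, 184 ± 52.4 CPM of Cdx2 and 131 ± 38.1 CPM of Cdx4. The clusters led by Pax9 and by Pyy and Hhex, which mark pharyngeal and foregut endoderm, held between 0.467 and 2.52 CPM of each gene. Among surface ectoderm-like cells, the cluster led by Bhlha9 and Wnt6 held 117 ± 50.0, 187 ± 34.8 and 81.6 ± 30.6 CPM of Cdx1, Cdx2 and Cdx4, against 4.18, 2.33 and 1.89 CPM in the cluster led by Dlx5 and Foxi2. Among allantois-like cells, the cluster led by Spin2c held 54.1 ± 24.3, 108 ± 45.3 and 169 ± 79.98 CPM, and the cluster led by Tbx4 held 3.45 ± 2.65, 82.8 ± 28.7 and 42.7 ± 22.9 CPM (n = 5), with Cdx1 differing by the largest fold of the 3.

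The genes with the pattern most like each member over the 22 WT classes were mostly Hox genes and genes of the tail bud. By Pearson's r of the class means of log2(CPM + 1), among 8317 genes, Cdx1 was closest to Hoxa3 (0.95), Hoxaas3 (0.936), Hoxc4 (0.929), Hoxb5os (0.926) and Cdx4 (0.9). Cdx2 was closest to the posterior homeobox gene Evx1 (0.87), then Hoxaas3 (0.851), Evx1os (0.843), Cdx4 (0.84) and Etv4 (0.829). Cdx4 was closest to Hoxaas3 (0.97), Hoxb9 (0.965), Evx1os (0.961), Evx1 (0.945) and Hoxc4 (0.937). Cdx1 and Cdx2 were less alike, at 0.708, and Cdx2 ranked at place 171 among the genes most like Cdx1. These values describe classes that share libraries, and Hoxaas3, Etv4 and Evx1os were among the leading genes of the NMP-like class.

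Single NMP-like cells often held UMIs of several members. After each cell was thinned to 1500 UMIs, 31.3% of WT NMP-like cells held a Cdx1 UMI, 40.7% a Cdx2 UMI and 47.8% a Cdx4 UMI (1250 cells, median depth before thinning 37324.5 UMIs). Erythroid-like cells held them in 0.163%, 0.132% and 0.116% of cells (4816 cells, median 31371.5 UMIs) and are taken as the background share. At this depth 23.2 ± 6.32% of NMP-like cells held none of the genes, 40.3% held 1, 29.9% held 2 and 6.51% held all 3, whereas without thinning 90.3% held all 3. In NMP-like cells the shares holding a pair of genes were close to the products of their single shares. Cdx2 and Cdx4 were found together in 20.7 ± 4.93% of cells against a product of 19.4%, above it in 6 of 7 embryos. Cdx1 and Cdx2 were found together in 13.5 ± 7.87% against 12.96% (above in 4 of 7), and Cdx1 and Cdx4 in 15.3 ± 7.60% against 15.4% (above in 3 of 7). In the Osr1-led cluster the joint share of Cdx2 and Cdx4 was 7.73 ± 3.12% against a product of 4.74% (above in 7 of 7), that of Cdx1 and Cdx2 1.59% against 1.52% (3 of 7) and that of Cdx1 and Cdx4 2.47% against 2.22% (5 of 7).

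The next question was what the absence of each enzyme did to the family in the whole embryo, with UMIs summed over the kept cells. In such sums, fewer cells of a class and less RNA per cell cannot be told apart. Cdx4 was lower in Dnmt1 KO than in any WT embryo, whereas Cdx1 and Cdx2 were not called in any KO group. Calls needed both a 2-fold change and a false discovery rate of 1% in the quasi-likelihood test of edgeR, with Benjamini-Hochberg adjustment over all genes tested.

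Cdx4 stood at 18.95, 11.7 and 24.8 CPM in Dnmt1 KO 1, 2 and 3, and in WT its lowest, median and highest values were 41.6, 80.6 and 108 CPM. The groups did not overlap, and Cdx4 fell by 1.91 on the log2 scale (SE 0.25, edgeR adjusted p = 1.92e-05). Cdx1 stood at 29.3, 21.5 and 37.6 CPM in Dnmt1 KO, inside the WT range of 11.2 to 53.0 CPM (median 45.2 CPM; log2 fold change -0.24, SE 0.36, edgeR adjusted p = 0.630). That estimate turned to 0.30 with the Y-linked level as a covariate and to 0.41 without the ExE ectoderm-, ExE endoderm-, blood- and immune-like classes, and was not called there either. Cdx2 stood at 41.7, 37.3 and 43.0 CPM, with Dnmt1 KO 2 below and Dnmt1 KO 1 and 3 at the low end of the WT range of 39.2 to 84.9 CPM (median 61.6 CPM; log2 fold change -0.47, SE 0.18, edgeR adjusted p = 0.0428). So 1 of the 3 genes was called, in a comparison in which 14.2% of the 18653 genes tested were called.

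In Dnmt3a KO, Cdx1 stood at 12.03, 25.9, 10.8 and 14.9 CPM in embryos 1, 2, 13 and 14. These values lay below the 5 WT embryos WT 3 to WT 7 (39.9 to 53.0 CPM) and overlapped WT 1 (11.2 CPM) and WT 2 (19.2 CPM), and the log2 fold change of -1.22 (SE 0.34) had an unadjusted p of 0.00242 and an edgeR adjusted p of 0.161. Cdx2 averaged 50.4 ± 11.3 CPM against 60.2 ± 16.8 CPM in WT, and Cdx4 48.6 ± 9.42 CPM against 74.2 ± 23.5 CPM (log2 fold changes -0.26 and -0.61). In Dnmt3b KO the values of Cdx1 were 17.8, 21.96, 28.7 and 28.6 CPM in the libraries labelled 1, 2, 11 and 12, those of Cdx2 41.5, 57.1, 61.5 and 56.6 CPM and those of Cdx4 48.5, 66.2, 57.1 and 63.4 CPM. The log2 fold changes there were -0.53 for Cdx1, -0.10 for Cdx2 (0.051 with the Y-linked covariate) and -0.32 for Cdx4. None of the 3 genes was called in either group by edgeR or by DESeq2, where 0.22% of genes were called in Dnmt3a KO and 1.94% in Dnmt3b KO, and 2 of them had an unadjusted p under 0.05 in Dnmt3a KO (Cdx1 and Cdx4), as had 9.65% of all genes.

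**Figure D2:**
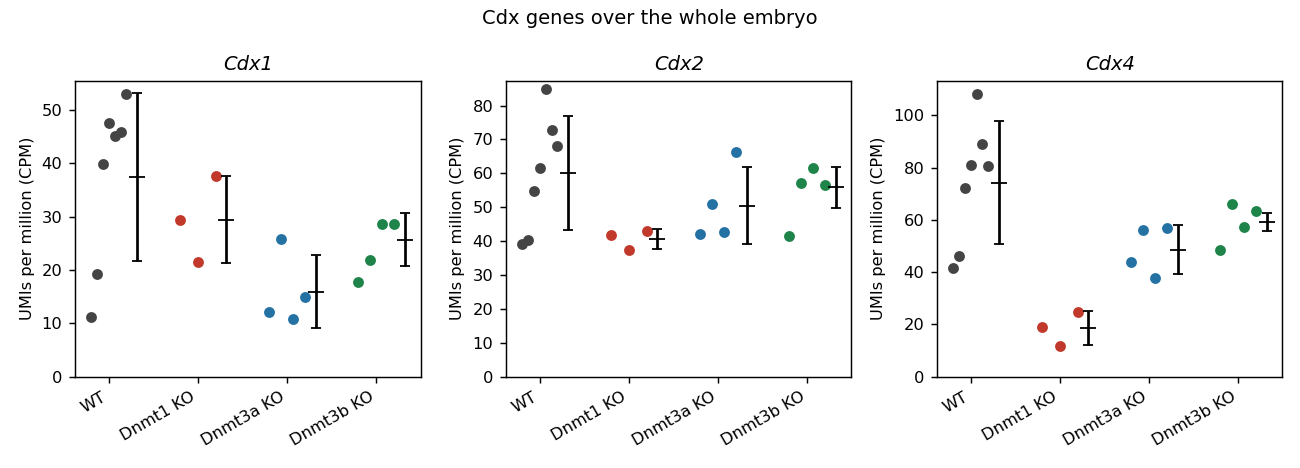
Cdx1, Cdx2 and Cdx4 in the summed counts of each embryo, 1 panel per gene. Each point is 1 library in CPM by group, and the black bar is the mean ± SD with the libraries labelled Dnmt3b KO 1 and 2 averaged. The 3 Dnmt1 KO embryos (11.7 to 24.8 CPM) lie below every WT embryo for Cdx4 but not for Cdx1.

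WT 1 and WT 2 differed from the other WT embryos in cell makeup too. NMP-like and presomitic mesoderm-like cells together made 5.82% and 3.59% of their cells, against 9.56% to 12.05% in WT 3 to WT 7. WT 2 was also the only male among the WT embryos, and WT 1 the only WT library counted on the joint reference. Of the KO libraries on that reference, Dnmt3a KO 1 and 13 held 12.03 and 10.8 CPM of Cdx1. The library labelled Dnmt3b KO 11 held 28.7 CPM. The part of cell makeup, sex or reference in the low Cdx1 of the 2 WT embryos was not tested.

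The classes that supplied the counts differed between Dnmt1 KO and WT. In WT, NMP-like cells (3.97 ± 1.31% of cells) gave 32.3 ± 5.82% of the Cdx1, 26.3 ± 3.61% of the Cdx2 and 29.4 ± 1.99% of the Cdx4 UMIs of an embryo. In Dnmt1 KO only 2 cells of 7068 were NMP-like, 7 were presomitic mesoderm-like and 6 belonged to the Osr1-led cluster. The classes with the highest WT levels, as named here, were therefore nearly missing. There most of the Cdx1 and Cdx4 counts came from classes that WT embryos hardly held. Epiblast-like cells, named from Pou5f1, Utf1 and Slc7a3, made 12.6 ± 3.67% of cells and gave 68.3 ± 10.8% of the Cdx1, 32.3 ± 3.29% of the Cdx2 and 30.5 ± 13.99% of the Cdx4 UMIs. A cluster led by Mesp1, a gene of nascent mesoderm, made 5.11 ± 1.70% of cells and gave 19.0 ± 8.16%, 19.2 ± 11.1% and 49.6 ± 10.3%. Its highest marker score was for presomitic mesoderm (1.93), close to that for caudal epiblast and primitive streak (1.79). It stayed unnamed because these scores were alike, so the near absence of presomitic mesoderm-like cells depends on the naming. The paper reports NMPs as underrepresented and caudal epiblast as overrepresented in Dnmt1 KO. It also lists Pou5f1, Utf1 and Slc7a3 among the pluripotency markers upregulated there across most cell types. The Epiblast-like name rests on these genes, so it may depend on the genotype. Wnt8a, on the marker list of caudal epiblast and primitive streak, was among the leading genes of that cluster. Whether some of these cells belong to other types was not tested. Cdx2 came from more classes, with 13.4 ± 11.3% from ExE ectoderm-like, 12.5 ± 7.69% from ExE endoderm-like, 10.8 ± 1.83% from ExE mesoderm and mesenchyme-like and 4.72 ± 1.81% from gut-like cells, and ExE mesoderm and mesenchyme-like cells also gave 11.2 ± 2.42% of the Cdx4 UMIs.

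In Epiblast-like cells of Dnmt1 KO 1, 2 and 3, Cdx1 stood at 137, 203 and 103 CPM, Cdx2 at 96.1, 144 and 62.9 CPM and Cdx4 at 46.8, 56.3 and 17.4 CPM. In the Mesp1-led cluster (354 cells), Cdx1 stood at 95.2, 95.0 and 79.0 CPM, Cdx2 at 145, 122 and 100 CPM and Cdx4 at 191, 159 and 112 CPM. Cdx4 was higher in the Mesp1-led cluster than in the Epiblast-like cells of the same embryo in each of the 3 embryos, and Cdx1 was lower in each. No WT counterpart held enough cells, because 97.9% of the reference cells of the Epiblast-like cluster and 99.6% of the Mesp1-led cluster came from Dnmt1 KO, so these levels have no comparison with WT.

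The shares of the classes were compared by exact two-sided permutation tests over embryos, 81 tests in all. NMP-like cells made 1.85% to 5.70% of cells in WT and 0 to 0.137% in Dnmt1 KO, presomitic mesoderm-like cells 1.74% to 6.39% and 0.0392% to 0.164%, and the Osr1-led cluster 3.20% to 9.40% and 0.0327% to 0.157%. Each gave an exact permutation p = 0.0167, the smallest that 3 against 7 embryos allow, and an adjusted p of 0.075. In Dnmt3a KO presomitic mesoderm-like cells made 2.39 ± 0.945% against 4.89 ± 1.77% of cells in WT (exact permutation p = 0.0485, adjusted p = 0.184), and NMP-like cells 2.31 ± 0.725% (p = 0.0545). No share passed the adjusted threshold.

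Within the classes that both Dnmt1 KO and WT held in at least 3 embryos, 5 of 12 pairs of gene and class were called, where 9.57% of all gene and class pairs tested in the same classes were. That count ran from 2 to 6 without single libraries, with 2 without Dnmt1 KO 1 or 2 and 3 without Dnmt1 KO 3. The pairs came from 4 classes, since in immune-like cells no Cdx gene passed the filter on low counts. In ExE mesoderm and mesenchyme-like cells, the mesoderm of yolk sac and amnion, all 3 genes rose, where 9.66% of the 12657 genes tested were called. In gut-like cells Cdx4 fell and Cdx1 was higher without passing the test, where 7.77% of 13105 genes were called. In ExE endoderm-like cells Cdx4 fell from a level already near background, where 5.59% of genes were called. With the Y-linked level as a covariate 3 pairs were called in all, and the 2 falls of Cdx4 did not both keep their call. The fourth class, cardiomyocyte-like cells, had no Cdx gene called by edgeR (unadjusted p = 0.0238 and adjusted p = 0.0522 for Cdx1, the lowest of the 3), where 16.0% of genes were called. There 99.8% of the Dnmt1 KO cells lay in a cluster led by Sfrp5 and Tbx5, which held 25.6% of the WT cells, and 73.9% of those in WT lay in a cluster led by Actc1 and Acta1, in which WT Cdx1 stood at 2.91 ± 1.82 CPM against 7.42 ± 9.06 CPM in the former.

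Cdx4 in ExE mesoderm and mesenchyme-like cells stood at 12.7, 18.2 and 14.8 CPM in Dnmt1 KO 1, 2 and 3, and its lowest, median and highest values in WT were 0, 1.91 and 2.98 CPM. The 0 belongs to WT 5, whose 46 cells of this class allow a level of up to 2.02 CPM. The groups did not overlap, and Cdx4 rose by 2.997 on the log2 scale (SE 0.38, edgeR adjusted p = 6.13e-06). Cdx2 stood at 30.4, 39.1 and 32.6 CPM against 6.11 to 11.98 CPM in WT and also rose without overlap (log2 fold change 2.05, SE 0.21, edgeR adjusted p = 5.77e-07). Cdx1 stood at 1.92, 3.37 and 2.43 CPM against 0 to 1.70 CPM (log2 fold change 1.59, SE 0.46, edgeR adjusted p = 0.00954), a call that was lost when the Y-linked level was a covariate (0.77, edgeR adjusted p = 0.389), when doublets and the barcodes failing the mitochondrial and ribosomal limits were kept (0.92, edgeR adjusted p = 0.0735) and in 13 of the 18 fits that left out 1 library, among them those without WT 1 and without each Dnmt1 KO embryo.

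Different clusters held this class in the groups. In Dnmt1 KO 82.5% of the cells lay in a cluster led by Tdo2 and Stard8, 97.8% of whose reference cells came from Dnmt1 KO, and 16.6% in a shallow cluster led by Tdo2 and Lum. In WT the cells were spread over clusters led by Lum (36.2%), by Postn (34.0%) and the shallow cluster (27.8%). The shallow cluster was the only large one shared by both genotypes. There Dnmt1 KO 2 and Dnmt1 KO 3 held 1 and 2 Cdx2 UMIs (6.01 and 3.97 CPM) and no Cdx4 UMI. WT embryos held 10.7 ± 8.74 CPM of Cdx2 and 0.715 ± 1.60 CPM of Cdx4 in it (n = 5). Dnmt1 KO 2 and Dnmt1 KO 3 held 166489 and 503627 UMIs of all genes in this cluster. Since a count of 0 allows up to 3 counts, the Cdx4 level of Dnmt1 KO 2 there could still lie within the 12.7 to 18.2 CPM of the class. On these few counts the rises of Cdx2 and Cdx4 were not seen in this cluster, and it was not tested. At a coarser clustering a cluster led by AC167229.1, Tdo2 and Mesp1, 97.3% of it from Dnmt1 KO, was left unnamed because of its leading genes, and the rises could not be tested there. In the other classes held by all 3 Dnmt1 KO embryos Cdx4 stood at 154 ± 39.3 CPM (Mesp1-led), 40.2 ± 20.3 CPM (Epiblast-like), 16.1 ± 11.2 CPM (gut-like), 4.70 ± 2.64 CPM (cardiomyocyte-like), 0.591 ± 0.756 CPM (ExE ectoderm-like), 0.402 ± 0.541 CPM (immune-like) and 0.0697 ± 0.0583 CPM (ExE endoderm-like), so that the 12.7 to 18.2 CPM of the extraembryonic mesoderm lay in the range of the gut-like cells. After thinning to 1500 UMIs, 1.87 ± 1.20% of these cells held a Cdx4 UMI in Dnmt1 KO and 0.295 ± 0.267% in WT (exact permutation p = 0.0167, the smallest possible, adjusted p = 0.627 over 141 tests). The shares with a Cdx2 UMI were 4.21 ± 1.31% and 1.94 ± 2.05% (exact permutation p = 0.167), and those with a Cdx1 UMI 0.521 ± 0.144% and 0.292 ± 0.523% (exact permutation p = 0.533).

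Cdx4 in gut-like cells stood at 8.56, 10.8 and 29.0 CPM in Dnmt1 KO 1, 2 and 3, and at 55.8, 75.99 and 144 CPM (lowest, median and highest) in WT. The groups did not overlap, and Cdx4 fell by 2.18 on the log2 scale (SE 0.48, edgeR adjusted p = 0.00222). The Dnmt1 KO embryos held only 109 gut-like cells, 30 to 40 each, and the call was lost without Dnmt1 KO 1 (-1.84, edgeR adjusted p = 0.0279) or without Dnmt1 KO 2 (-1.98, edgeR adjusted p = 0.0196). Cdx1 went the other way, with 34.2, 32.5 and 74.1 CPM against 6.07 to 31.3 CPM in WT. These groups did not overlap either, but the log2 fold change of 1.44 (SE 0.43, edgeR adjusted p = 0.0187) was not called. It was 0.91 without Dnmt1 KO 3 (edgeR adjusted p = 0.237), and was called without Dnmt3a KO 2 (1.45, edgeR adjusted p = 0.00909), without the filter on low counts (1.40, edgeR adjusted p = 0.00754), with only Dnmt1 KO and WT in the fit (1.46, edgeR adjusted p = 0.00847) and with all libraries thinned to the smallest (1.49, edgeR adjusted p = 0.00199). Cdx2 held 117, 78.2 and 108 CPM, within the WT range of 75.5 to 202 CPM (log2 fold change -0.02, and 0.18 with the Y-linked covariate).

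Of the gut-like cells of Dnmt1 KO, 91.7% lay in the cluster led by Nepn and Gpx2, where the family is highest in WT, against 58.8% of those in WT. In that cluster alone, an alternative chosen after seeing the data, Cdx4 stood at 17.6 ± 12.99 CPM in Dnmt1 KO, against the 131 CPM given above for WT, and was called (log2 fold change -2.78, SE 0.43, edgeR adjusted p = 6.78e-05, with 7.02% of genes called). There Cdx2 stood at 108 ± 19.9 CPM against 184 CPM in WT (-0.64, edgeR adjusted p = 0.0213) and Cdx1 at 50.8 ± 27.9 CPM against 31.1 CPM (0.83, edgeR adjusted p = 0.153), neither of them called.

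In ExE endoderm-like cells Cdx2 stood at 18.9, 19.4 and 17.3 CPM in Dnmt1 KO, below the WT range of 20.6 to 32.01 CPM, with a log2 fold change of -0.49 (SE 0.11, edgeR adjusted p = 0.00290) that did not reach 2-fold. Cdx4 was called lower (log2 fold change -4.63, SE 1.15, edgeR adjusted p = 0.00620) on 4 UMIs in 1464 Dnmt1 KO cells against 217 UMIs in 4425 WT cells. That call was lost when all libraries were thinned to the smallest (-2.46, edgeR adjusted p = 0.126) and when any 1 of the 3 Dnmt1 KO embryos was left out (-4.93 to -4.15). Different clusters held this class too, with 71.1% of the Dnmt1 KO cells in a cluster led by Pkd1l2 and Serpinb1c, 98.4% of it from Dnmt1 KO, and 28.5% in the cluster led by Apoa1 and Ttr. The WT cells lay in the latter (48.0%) and in a cluster led by Apob and Cubn (51.7%), where WT Cdx4 stood at 3.28 ± 3.68 and 0.923 ± 0.718 CPM and WT Cdx2 at 29.2 ± 7.996 and 25.9 ± 3.23 CPM. The part of these clusters in the differences was not tested. ExE ectoderm-like cells, the trophoblast lineage in which Cdx2 is a known regulator, held 36.1 ± 9.03 CPM of Cdx2 in Dnmt1 KO (1149 cells), beside 37.3 CPM in the 1 WT embryo with enough of them, with no test.

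**Figure D3:**
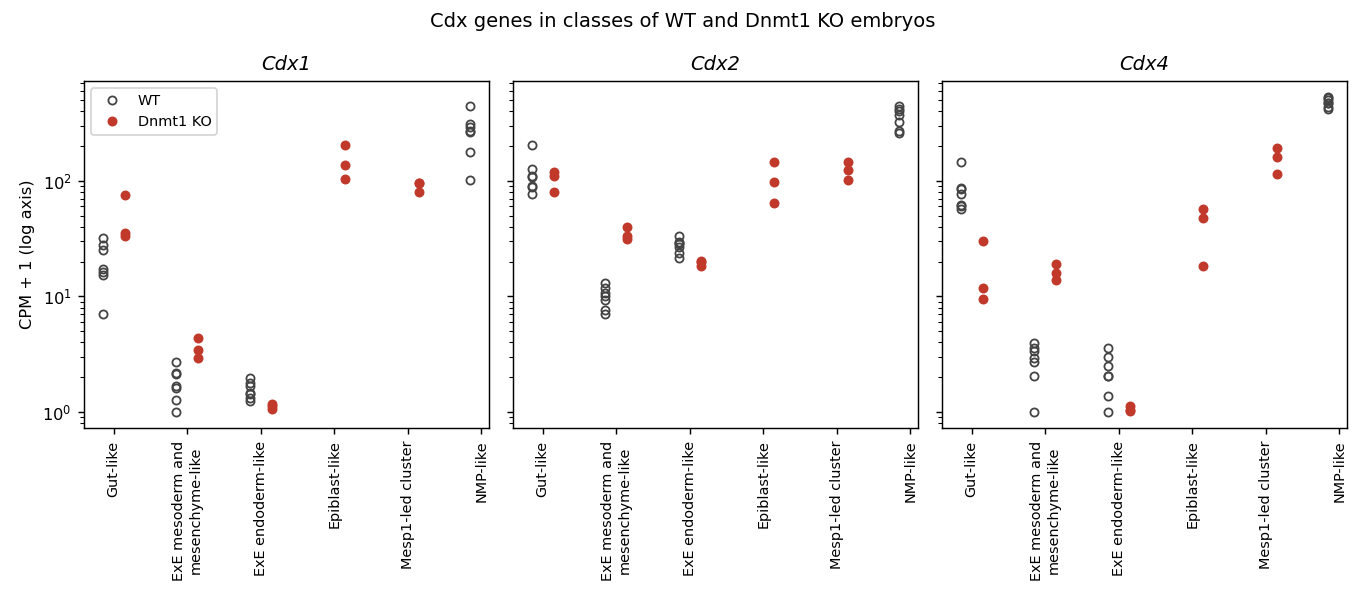
Cdx1, Cdx2 and Cdx4 in classes of WT and Dnmt1 KO embryos, 1 panel per gene. Each point is 1 embryo in CPM + 1 on a log axis. Cdx4 is higher in ExE mesoderm and mesenchyme-like cells and lower in gut-like cells of Dnmt1 KO without overlap, and the Epiblast-like and Mesp1-led classes hold points of Dnmt1 KO embryos, the NMP-like class of WT embryos.

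In Dnmt3a KO and Dnmt3b KO the NMP-like cells were present and their Cdx2 and Cdx4 levels were close to WT. Cdx2 averaged 384 CPM in Dnmt3a KO and 329 CPM in Dnmt3b KO against 353 CPM in WT, and Cdx4 446 and 453 CPM against 475 CPM (log2 fold changes between -0.07 and 0.14). In the libraries labelled Dnmt3b KO 1, 2, 11 and 12, Cdx2 stood at 277, 383, 327 and 331 CPM and Cdx4 at 412, 524, 402 and 488 CPM. Cdx1 had the largest median change over the classes in both groups. By edgeR none of 60 pairs of gene and class was called in Dnmt3a KO and none of 54 in Dnmt3b KO, against 10 and 7 with an unadjusted p under 0.05, where 9.55% and 14.6% of all pairs tested had one. DESeq2 called 1 pair in Dnmt3a KO. Over all genes and these classes, 0.117% of the gene and class pairs tested were called in Dnmt3a KO and 0.675% in Dnmt3b KO.

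Cdx1 had a lower estimate in 17 of 19 classes in Dnmt3a KO, with a median log2 fold change of -0.75 and 8 classes at an unadjusted p under 0.05, and in 13 of 17 classes in Dnmt3b KO (median -0.31). For comparison, Cdx2 was lower in 14 of 21 and 9 of 19 classes (medians -0.21 and 0.02), and Cdx4 in 15 of 20 and 13 of 18 (medians -0.45 and -0.29). The classes of an embryo share their library, and the same 7 WT embryos stand in every class, so these counts are not independent.

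The lowest adjusted p for Cdx1 was in the Osr1-led cluster in both groups. Cdx1 stood there at 25.9, 41.3, 25.5 and 26.1 CPM in Dnmt3a KO 1, 2, 13 and 14, and at 34.3, 37.6, 34.0 and 28.0 CPM in the libraries labelled Dnmt3b KO 1, 2, 11 and 12. WT 3 to WT 7 held 70.6 to 84.6 CPM, above all KO libraries, whereas WT 1 (29.6 CPM) and WT 2 (44.6 CPM) were in or near the KO range. The log2 fold change was -1.13 in Dnmt3a KO (SE 0.23, edgeR adjusted p = 0.0400, 0.0909% of genes called) and -0.97 in Dnmt3b KO (SE 0.25, edgeR adjusted p = 0.0475, 0.97% of genes called). Without WT 1 both were called (-1.26 with edgeR adjusted p = 0.00162, and -1.09 with 0.00301), and DESeq2 called the former (adjusted p = 0.000112). With the Y-linked level as a covariate the adjusted p was 0.284 and 0.105, and without the library labelled Dnmt3b KO 12, whose Dnmt3a is low, the latter was -0.85 (edgeR adjusted p = 0.349).

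In NMP-like cells Cdx1 stood at 167, 246, 95.5 and 93.5 CPM in Dnmt3a KO 1, 2, 13 and 14, a mean of 150 ± 72.0 CPM, and at 161, 203, 225 and 286 CPM in the libraries labelled Dnmt3b KO 1, 2, 11 and 12, a mean of 231 ± 52.7 CPM, against 264 ± 108 CPM in WT. The log2 fold changes were -0.77 (SE 0.31, edgeR adjusted p = 0.359, 0.104% of genes called) and -0.17 (SE 0.33, edgeR adjusted p = 0.821, 0.458% of genes called), and both groups overlapped WT. In presomitic mesoderm-like cells the change in Dnmt3a KO was -0.86 (SE 0.29, edgeR adjusted p = 0.437, 0.0846% of genes called), and in surface ectoderm-like cells -1.17 (SE 0.35, edgeR adjusted p = 0.162, 0.196% of genes called). Within the Bhlha9-led surface ectoderm-like cluster alone, also chosen after seeing the data, it was -1.23 (SE 0.34, edgeR adjusted p = 0.177), from 117 ± 50.0 to 51.1 ± 22.9 CPM, and was not called.

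Cdx4 in gut-like cells had the lowest adjusted p for that gene in Dnmt3b KO. The libraries labelled Dnmt3b KO 1, 2, 11 and 12 held 43.7, 43.3, 39.1 and 9.38 CPM, all below the WT range of 55.8 to 144 CPM, with 12 far below the other 3. The log2 fold change was -1.35 (SE 0.37, edgeR adjusted p = 0.0601, 0.961% of genes called), and without the library labelled Dnmt3b KO 12 it was -0.92 (SE 0.31, edgeR adjusted p = 0.382). In the Nepn-led cluster alone it was -1.05 (SE 0.33, edgeR adjusted p = 0.136).

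**Figure D4:**
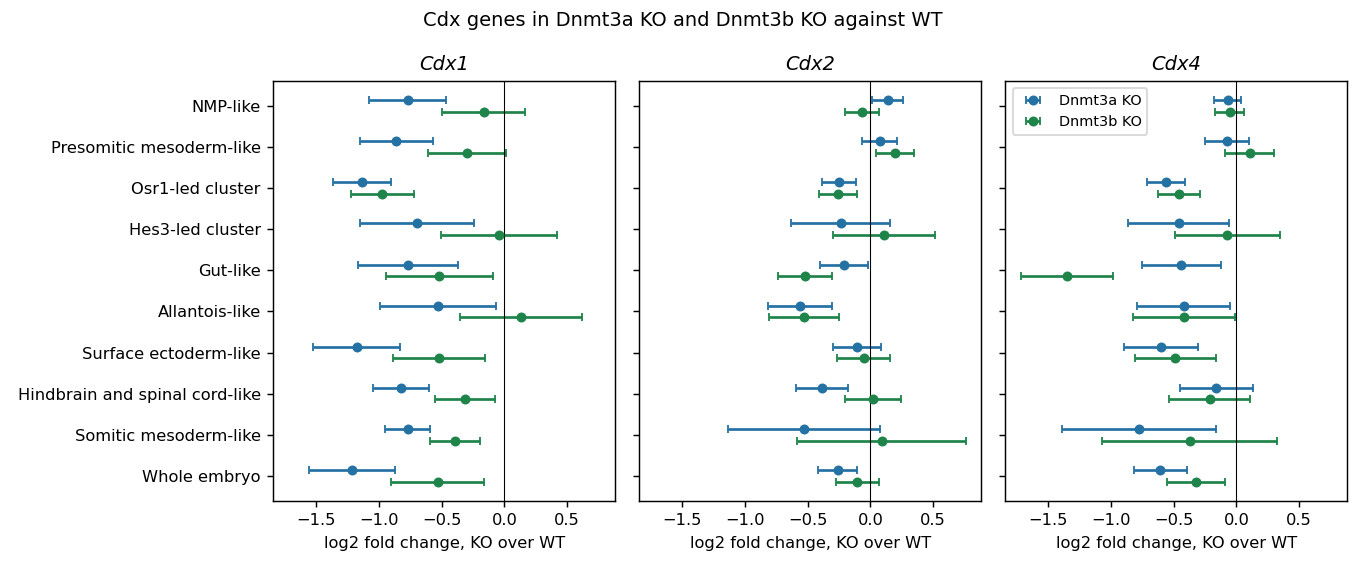
Log2 fold changes of Cdx1, Cdx2 and Cdx4 against WT in Dnmt3a KO and Dnmt3b KO, by class and in the whole embryo, from the edgeR fits. Points are estimates and bars their standard errors, and Cdx1 lies below 0 for Dnmt3a KO in each class drawn, by 1.13 in the Osr1-led cluster.

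The genes around the family in its pathway were counted in the same whole-embryo fits. In Dnmt1 KO, where the median log2 fold change over all genes tested was 0.02 and 14.2% of them were called, 11 of 20 tail bud Wnt, Fgf and T-box genes fell, with a list median of -1.18. Among them were the Fgf ligands Fgf17 (-2.52) and Fgf8 (-2.08), their target Dusp6 (-1.57), the transcription factors Sp8 (-1.84) and Sox2 (-1.58) and the ligand Wnt5b (-1.26). Of this list 7 genes were called without the ExE ectoderm-, ExE endoderm-, blood- and immune-like classes. The list shares markers with the NMP-like and presomitic mesoderm-like classes, Fgf17 and Fgf8 among them, and Dnmt1 KO held few such cells. In whole-embryo sums fewer cells and less RNA per cell cannot be told apart. Of 18 trunk and posterior Hox genes, known Cdx targets among them, 14 fell (median -2.36), led by Hoxc8 (-3.31), Hoxa9 (-4.28), Hoxa10 (-3.26) and Hoxa7 (-2.38). Of 11 anterior Hox genes tested 7 fell (median -1.56), among them Hoxc4 (-3.09) and Hoxa3 (-1.93), the genes listed above as close to Cdx1 or Cdx4 in WT.

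Of 12 trophoblast stem cell genes 5 rose and 1, Sox2, fell (median 0.62). Elf5 (4.45), Ascl2 (4.33), Tfap2c (3.13), Eomes (3.03) and Esrrb (2.51) rose, whereas the change of Cdx2, which acts beside them in trophoblast, was -0.47. ExE ectoderm-like cells made 13.8 ± 14.96% of cells in Dnmt1 KO, and without the ExE ectoderm-, ExE endoderm-, blood- and immune-like classes 2 members of this list were called. Of 12 genes of retinoic acid synthesis, breakdown and response 5 fell (median -0.87), among them the degrading enzymes Cyp26c1 (-3.01) and Cyp26b1 (-1.78), the binding proteins Crabp2 (-1.27) and Crabp1 (-1.11) and the receptor Stra6 (-1.20), a count that was 2 without Dnmt1 KO 1 or Dnmt1 KO 2 and was 7 without Dnmt1 KO 3. Of 10 gut endoderm transcription factors 1 fell, Foxa1 (-1.95), and none of 8 cofactors of Cdx and Hox proteins and none of 20 housekeeping genes was called by edgeR or DESeq2, against 5 and 8 with an unadjusted p under 0.05, which 46.1% of all genes had.

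In Dnmt3a KO and Dnmt3b KO no gene of these lists was called by edgeR or DESeq2 in the whole embryo. Of the 20 tail bud genes 6 in Dnmt3a KO and 2 in Dnmt3b KO had an unadjusted p under 0.05 (list medians -0.40 and -0.37), where 9.65% and 17.6% of all genes had one. The trunk and posterior Hox genes had medians of 0.23 and 0.06, with 3 and 2 of 18 at an unadjusted p under 0.05, and each other list had at most 3. In the NMP-like cells of Dnmt3a KO, where the estimate for Cdx1 was -0.77, the median of 15 trunk and posterior Hox genes was 0.39, with none called by edgeR or DESeq2 and 7 at an unadjusted p under 0.05, as were 11.3% of all genes.

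Within classes of Dnmt1 KO, Hox genes fell along with Cdx4 in gut-like cells and moved in both directions in the extraembryonic mesoderm. In gut-like cells, where 7.77% of all genes tested were called, 10 of 16 trunk and posterior Hox genes fell (median -3.51), among them Hoxb8 (-3.54), Hoxb9 (-3.10) and Hoxc8 (-5.70), and 6 of 10 anterior Hox genes fell (median -2.48). In ExE mesoderm and mesenchyme-like cells, with 9.66% of all genes called, 4 of 16 trunk and posterior Hox genes rose, Hoxa7 (3.27), Hoxa5 (2.75), Hoxd9 (2.06) and Hoxa9 (1.53), and 2 fell, Hoxc8 (-1.85) and Hoxc5 (-1.17), with a median of 0.00 beside 0.01 over all genes. The paper reports Hoxc9, Hoxc8, Hoxb9 and Hoxa9 as downregulated in ExE mesoderm of Dnmt1 KO. Hoxc8 went the same way here and Hoxa9 the other way. As given above, different clusters held most of this class in Dnmt1 KO and in WT, and their part in the Hox changes was not tested. In ExE endoderm-like cells, with 5.59% called, none of 13 trunk and posterior Hox genes was called by edgeR, against 2 by DESeq2 and 7 at an unadjusted p under 0.05, as were 39.2% of all genes. In cardiomyocyte-like cells, with 16.0% called, 2 of 11 trunk and posterior Hox genes fell, Hoxc8 (-4.03) and Hoxa9 (-3.31), with a list median of -1.48.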

How the data were processed

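Droplet 3' libraries, 18 in all and each labelled as 1 embryo, were analysed as deposited. The authors counted reads as unique molecular identifier counts per gene and barcode with Cell Ranger on mm10, and the deposited counts are raw and were called as cells but not otherwise filtered. File headers name Cell Ranger 3.1.0 in 17 libraries and 5.0.0 in the library labelled Dnmt3b KO 12, and 4 libraries were counted on a joint human and mouse reference, of which mouse rows were used. The members and the gene lists were chosen with earlier results of these data known.

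Barcodes with at least 1500 UMIs, at most 30% mitochondrial and 35% ribosomal counts were kept (117886), and 7924 were removed as doublets by their Scrublet scores, the highest in each library at an expected rate that rose with its number of barcodes. Reference cells (26830, up to 1500 per embryo) were clustered with scanpy 1.11.5 on 2500 variable genes without Cdx, Hox, sex-linked marker, mitochondrial or ribosomal genes (50 components, 30 neighbours, Leiden resolution 2). Of 44 clusters 36 were named in 19 classes from 24 marker lists and 8 stayed unnamed. Rebuilt classes may differ from those of the study. Counts were summed per embryo and class (at least 25 cells, at least 3 libraries per group) and tested with edgeR 4.0.16 (quasi-likelihood, TMM, filterByExpr, all groups in 1 fit, R 4.3.3), called at an adjusted p of 1% and a log2 fold change of 1 after the methods of the study. The libraries labelled Dnmt3b KO 1 and 2, which share cells, were averaged, leaving 3 values in that group. The test was checked on simulated counts. Alternatives were DESeq2 1.42.0, its size factors, no filter on low counts, covariates for Y-linked genes and for the reference, other cell filters, a coarser clustering and leaving out each library.

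Median depth per cell was 4452.5 to 59698 UMIs per library. CPM are UMIs of a gene per 1000000 UMIs of the cells summed, differences between classes were taken on log2(CPM + 1), and shares of cells had 0.5 cells added before the log. Named genes were the members, the targeted Dnmt genes, up to 6 called members per list and group by adjusted p (otherwise the member with the lowest adjusted p), and the 5 genes most like each member among those reaching 20 CPM in 1 class. An upper limit for a count of 0 is 3 counts, and covers counting error only. Embryos are the replicates. Sequence of the Cdx1 promoter and of the proteins was not used here.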

Additional observations from a re-analysis of the deposited data

Results flagged for a closer look

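In groups of 4 to 10 embryos, 6 single values stood apart from the rest of their group by Dixon's criterion, among 56 groups tested. Chance gives about 1 such value in 20 groups, but the groups are genes and classes of the same embryos and are not independent. Dnmt3a KO 2 and WT 7 each gave more than 1 of these values. Dnmt3a KO 2 held 41.3 CPM of Cdx1 in the Osr1-led cluster where the other 3 Dnmt3a KO embryos held 25.5 to 26.1 CPM, and 31.5 CPM of Cdx1 in surface ectoderm-like cells where the others held 12.6 to 14.9 CPM. Both values of this embryo lay nearer to WT than those of the other Dnmt3a KO embryos. Dnmt3a KO 1 held 359 CPM of Cdx4 in presomitic mesoderm-like cells, against 208 to 232 CPM in the others. WT 7 was high in gut-like cells for Cdx2 (202 CPM against 75.5 to 125 CPM) and for Cdx4 (144 CPM against 55.8 to 85.7 CPM), and WT 5 was high for Cdx2 in surface ectoderm-like cells (124 CPM against 39.3 to 66.2 CPM).

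The change in Dnmt1 KO differed between classes in 4 pairs, tested by permuting genotypes over the embryos that held both classes. On the log2(CPM + 1) scale, the Cdx4 change in ExE mesoderm and mesenchyme-like cells minus that in gut-like cells was 5.00, and the change in cardiomyocyte-like cells minus that in ExE mesoderm and mesenchyme-like cells was -3.51. For Cdx2 the change in ExE mesoderm and mesenchyme-like minus gut-like cells was 1.95, and that in ExE endoderm-like minus ExE mesoderm and mesenchyme-like cells was -2.32. Each had an exact permutation p of 0.0167, the smallest that 3 against 7 embryos allow, and an adjusted p of 0.0292 over the 7 pairs tested in Dnmt1 KO, but 0.868 over all 521 pairs. In each of these classes different clusters held most of the Dnmt1 KO cells than of the WT cells, except in gut-like cells.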

How the results depend on the processing

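Of 1466 alternative values for 58 results, 1393 were taken as unchanged. For fits and tests this meant the same direction and side of the threshold. For counts it meant a number close to the main one, and for levels in NMP-like cells a mean within the SD. Among the unchanged were the Cdx4 fall in whole Dnmt1 KO embryos (-2.20 to -1.68 without single libraries) and, in the alternatives that gave them a value, the Cdx2 and Cdx4 rises in ExE mesoderm and mesenchyme-like cells. The numbers of the embryos did not pair them (correlations of same-numbered embryos -0.246 to 0.203). A fit with the replicate number as a block kept only WT 1 to 3, Dnmt1 KO 1 to 3, Dnmt3a KO 1 and 2 and Dnmt3b KO 1 and 2. WT 1 and WT 2, which were low in Cdx1, stood among the WT embryos kept, and Dnmt3b KO 1 and 2 entered as separate libraries although they share cells. The part of this subset in the changes was not tested. The whole-embryo log2 fold change turned to 0.49 for Cdx1 in Dnmt1 KO, to 0.087, 0.10 and 0.12 for Cdx1, Cdx2 and Cdx4 in Dnmt3a KO, and to 0.10, 0.073 and 0.21 in Dnmt3b KO. With the block, Cdx1 in Dnmt3a KO was 0.62 in NMP-like, 0.24 in presomitic mesoderm-like and 0.049 in surface ectoderm-like cells, Cdx2 in Dnmt1 KO gut-like cells was 0.26 and Cdx1 there was called (1.74, edgeR adjusted p = 0.00017), and 7 tail bud and 2 retinoic acid genes were called in Dnmt1 KO instead of 11 and 5. With the Y-linked covariate Cdx1 in whole Dnmt1 KO embryos was 0.30, Cdx2 in Dnmt3b KO 0.051, Cdx2 in Dnmt1 KO gut-like cells 0.18, and 3 pairs of gene and class and 3 retinoic acid genes were called in Dnmt1 KO. Without the ExE ectoderm-, ExE endoderm-, blood- and immune-like classes Cdx1 in Dnmt1 KO was 0.41 and 7 tail bud, 2 trophoblast and 3 retinoic acid genes were called. With only Dnmt1 KO and WT in the fit, Cdx2 in gut-like cells was 0.00056. The 5 called pairs of Dnmt1 KO were 3 with at least 50 cells per class and 2 at the coarser clustering, which gave no ExE mesoderm and mesenchyme-like comparison in Dnmt1 KO and left the cluster led by AC167229.1 and Tdo2 unnamed. In Dnmt3a KO 1 pair was called by DESeq2 and 1 without the filter on low counts, both Cdx1 in the Osr1-led cluster. The cause was not tested in any of these.

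Leaving out single libraries gave 2 to 6 called pairs in Dnmt1 KO (2 without Dnmt1 KO 1 or 2, 3 without Dnmt1 KO 3), 0 to 1 in Dnmt3a KO and 0 to 1 in Dnmt3b KO (1 without WT 1 in each), and 2 to 7 retinoic acid genes (2 without Dnmt1 KO 1 or 2, 7 without Dnmt1 KO 3). Cdx2 in Dnmt1 KO gut-like cells ran from -0.13 to 0.16, with 0.13 without Dnmt1 KO 2, 0.0017 without WT 6 and 0.16 without WT 7. On the log2 scale the NMP-like share in Dnmt3b KO ran from -0.20 to 0.07 (0.066 without WT 6, 0.030 without WT 7) and that of the Osr1-led cluster in Dnmt3a KO from -0.27 to 0.37 (without Dnmt3a KO 2).

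Genotype is largely confounded with sex, and Dnmt1 KO gut-like cells number 109. Class shares and shares of cells with a UMI rest on exact tests whose adjusted p did not pass the threshold in these designs.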
